A study of Arabidopsis thaliana with 6 samples.

Results

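The tapetum transcription factor cascade is a set of 9 Arabidopsis thaliana genes, SPL/NZZ, DYT1, TDF1, AMS, MYB80, MS1, bHLH10, bHLH89 and bHLH91, which were taken by locus from the published order of action in the anther. All 9 loci were found among the 33027 loci of the deposited tables. RNA came from whole anthers of wild-type Col-0 plants, and transcripts were quantified by sequencing. All plants had iron for 28 days, of which 10 were on plates and 18 in hydroponics. They then spent 18 days in half-strength Hoagland medium with NaFe-EDTA (control, 3 libraries) or in a medium labelled Fe-deficient, to which no NaFe-EDTA was added (Fe-deficient, 3 libraries). The labels name the anther stage by the abbreviation PMC-TC, which is not spelled out there. Nothing in them tells whether the libraries within a group are from separate plants, so p-values speak of the spread between these RNA samples alone. That spread went beyond counting error, with a chi-square per degree of freedom of at least 26.5 between libraries of a group. How much of it is technical was not tested.

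The tapetum is the innermost cell layer of the anther wall. It feeds the developing microspores, supplies the enzymes and precursors of the outer pollen wall, and is dismantled before the pollen is shed. In the cascade, SPL/NZZ is needed for sporogenous cells and anther wall layers to form at all. DYT1, a basic helix-loop-helix (bHLH) factor, acts early in the tapetum and is needed for TDF1, a MYB factor. TDF1 is needed in turn for AMS, a bHLH factor, and AMS for MYB80, a MYB factor also known as MS188. MS1, a PHD-finger protein, acts last. bHLH10, bHLH89 and bHLH91 are closely related bHLH factors that bind DYT1 and act redundantly beside it.

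Libraries held between 16818176 and 22710901 estimated counts. Levels within a gene are given as CPM, counts scaled to a fixed total with library sizes scaled by TMM (trimmed mean of M values). Fe-deficient 3 stood apart in its iron response. BTS, an iron-deficiency E3 ligase, had 860 CPM there, against 101 and 79.6 CPM in Fe-deficient 1 and 2 and 72.0 to 80.3 CPM in the controls. The ferritin gene FER1 had 31.8 CPM there and 382 to 577 CPM in the other 5 libraries. Control 1 stood apart in late pollen RNA. The summed level of 26 late pollen markers was 1767 TPM (abundance scaled for transcript length and library total) in control 1 and 5193 and 5382 TPM in controls 2 and 3. It was 9920, 10907 and 4630 TPM in the Fe-deficient libraries. In these whole-anther libraries, fewer cells of a type and less RNA per cell cannot be told apart. The 4 tapetum markers that are not regulators, A9, ATA7, LTP12 and A6, were detected in all 6 libraries, with summed levels of 9381, 7080 and 5853 TPM in controls 1, 2 and 3 and 3378, 3961 and 4223 TPM in Fe-deficient 1, 2 and 3.

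To show the regulatory sequence of the cascade, the 250 bases before the annotated gene start were read from the TAIR10.1 genome. The letters CANNTG, the E-box that bHLH factors recognise and which reads the same on both strands, are in capitals. The promoters are those of the 3 members that hold an E-box in this window, and of TDF1, the tested member with the largest fold difference. They read 5′ to 3′ on the strand of the gene.
SPL/NZZ (TAIR10.1 chr4:13683595-13683844, minus strand): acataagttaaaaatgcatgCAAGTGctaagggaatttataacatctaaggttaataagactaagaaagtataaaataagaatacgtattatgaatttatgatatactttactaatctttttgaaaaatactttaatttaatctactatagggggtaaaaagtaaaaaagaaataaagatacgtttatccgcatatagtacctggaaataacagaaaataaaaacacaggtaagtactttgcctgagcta
TDF1 (TAIR10.1 chr3:10675725-10675974, minus strand): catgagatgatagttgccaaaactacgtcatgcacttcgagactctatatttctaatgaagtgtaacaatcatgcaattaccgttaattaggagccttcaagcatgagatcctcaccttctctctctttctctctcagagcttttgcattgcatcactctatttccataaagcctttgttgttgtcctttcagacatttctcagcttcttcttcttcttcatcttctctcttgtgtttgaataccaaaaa
MS1 (TAIR10.1 chr5:7370296-7370545, minus strand): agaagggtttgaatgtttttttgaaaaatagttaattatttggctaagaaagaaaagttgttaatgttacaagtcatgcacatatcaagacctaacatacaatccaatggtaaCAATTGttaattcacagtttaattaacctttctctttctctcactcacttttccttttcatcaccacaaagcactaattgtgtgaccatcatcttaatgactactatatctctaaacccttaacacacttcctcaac
bHLH10 (TAIR10.1 chr2:13302416-13302665, plus strand): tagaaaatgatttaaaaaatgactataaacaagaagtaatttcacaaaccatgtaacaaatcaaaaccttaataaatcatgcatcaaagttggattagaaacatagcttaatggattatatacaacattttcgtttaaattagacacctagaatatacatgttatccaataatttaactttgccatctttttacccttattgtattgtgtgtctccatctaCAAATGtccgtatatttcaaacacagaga

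An E-box was found in 3 of the 9 promoters and in 55.3% of the 27438 promoters of the same length in the genome. It begins 230 bases before the gene start in SPL/NZZ, 137 bases before it in MS1 and 29 bases before it in bHLH10. The promoters of DYT1, TDF1, AMS, MYB80, bHLH89 and bHLH91 hold none in this window. The MYB letters CCAACC or GGTTGG were found in 1 member promoter, that of bHLH91, and in 6.32% of all promoters. No member promoter held both motifs. Over 1000 bases before the start, members held between 0 E-boxes (bHLH89) and 5 (TDF1, MS1 and bHLH10), against a median of 3 over all genes. These matches describe the letters in a window and are not evidence of binding. The transcript lengths of SPL/NZZ and bHLH10 in the deposited tables differed from those of this annotation, so their start may be placed elsewhere in the authors' models.

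Of the 9 members, 6 had their highest Fe-deficient library under their lowest control: TDF1, AMS, MS1, bHLH10, bHLH89 and bHLH91. Among all 21267 tested genes, 10.3% did. Without Fe-deficient 3, 8 of 9 members did, all but SPL/NZZ, against 27.2% of genes, and without control 1, 6 of 9, against 11.7%. The 8 include DYT1, which was not tested, on 1 and 0 counts in Fe-deficient 1 and 2 against 2 counts in control 2. SPL/NZZ, DYT1 and MYB80 overlapped between the groups. By edgeR's quasi-likelihood test no member passed a Benjamini-Hochberg adjusted p of 0.05, and 0% of all tested genes passed, lower or higher. At an unadjusted p under 0.05, 6 members were lower by edgeR, against 6.09% of all tested genes (7.34% were higher). DESeq2, an alternative test, called 5 members lower (TDF1, AMS, MS1, bHLH89 and bHLH91) as were 1.41% of the 20780 genes to which it gave an adjusted p, with 2.10% higher. The median edgeR log2 fold change of the 8 tested members was -1.02, where that of all tested genes was 0.00, and all 8 were negative, against 49.7% of genes. It was -1.03 without Fe-deficient 3, the library that stands apart in its iron response, and -0.70 without control 1, the library lowest in late pollen RNA. With the mean level of the late pollen markers as a covariate it was -0.48, with SEs of single members between 0.25 and 0.80. These markers were themselves higher in Fe-deficient 1 and 2 than in the controls, so this fit cannot tell late pollen RNA from the treatment.

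**Figure D1:**
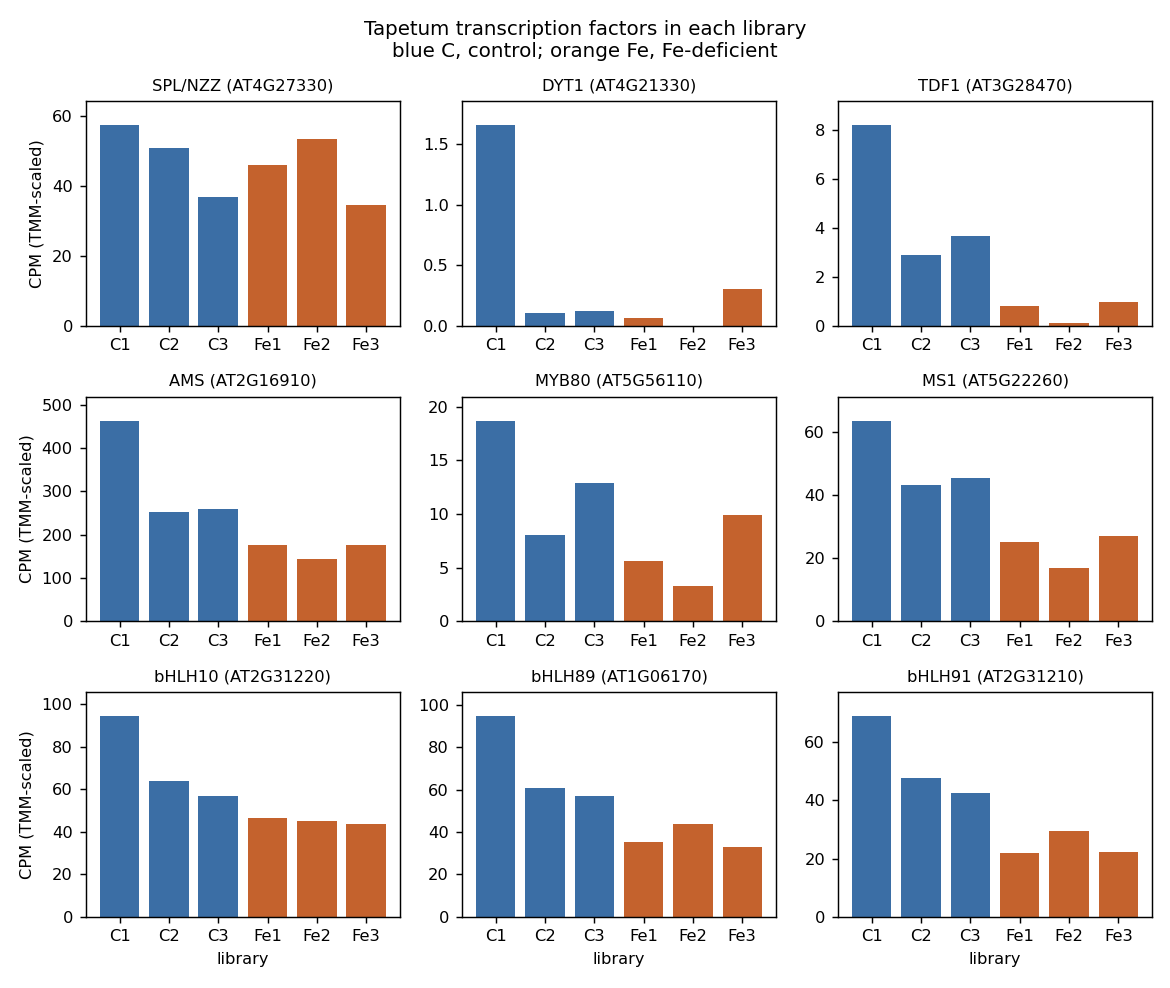
Level of each of the 9 cascade genes in each library, in TMM-scaled CPM on axes that start at 0. C1 to C3 are the control and Fe1 to Fe3 the Fe-deficient libraries. All 9 genes are highest in control 1 among the controls, and TDF1, AMS, MS1, bHLH10, bHLH89 and bHLH91 have no Fe-deficient bar as high as a control bar.

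At the head of the cascade, SPL/NZZ did not separate the groups. SPL/NZZ (AT4G27330, on the minus strand of TAIR10.1 chromosome 4 from 13682078 to 13683594, 3 exons) had 57.3, 50.9 and 36.7 CPM in controls 1, 2 and 3 and 46.0, 53.4 and 34.6 CPM in Fe-deficient 1, 2 and 3. Fe-deficient 2 was higher than 2 of the 3 controls, and control 3 and Fe-deficient 3 were the lowest of their groups. The log2 fold change was -0.11 (SE 0.23, 95% confidence interval -0.67 to 0.44, edgeR adjusted p = 0.830). The sign turned without control 1 (0.03) and without Fe-deficient 3 (0.04).

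DYT1 was barely detected outside control 1. DYT1 (AT4G21330, chromosome 4, 11349922 to 11350694, plus strand, 3 exons) had 33, 2 and 3 counts in controls 1, 2 and 3 and 1, 0 and 7 counts in Fe-deficient 1, 2 and 3. The 33 counts of control 1 correspond to 1.66 CPM, with an exact Poisson 95% interval of 1.14 to 2.33 CPM. The 7 counts of Fe-deficient 3 correspond to 0.306 CPM (0.123 to 0.631), above controls 2 and 3, so the groups overlapped. Taken as a floor of 3 counts, the 0 in Fe-deficient 2 allows up to 0.170 CPM. These intervals and floors cover counting error only. DYT1 did not reach the counts needed for testing, and without that filter edgeR gave a log2 fold change of -2.19 (SE 1.40, adjusted p = 0.532). The highest control was 15.2 times the lowest.

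TDF1, the MYB factor next in the cascade, had the largest fold difference among the tested members. TDF1 (AT3G28470, chromosome 3, 10674508 to 10675724, minus strand, 3 exons) had 8.19, 2.88 and 3.68 CPM in controls 1, 2 and 3. Fe-deficient 1, 2 and 3 had 0.808, 0.113 and 0.962 CPM of it, from 12, 2 and 22 counts. All Fe-deficient libraries lay below all controls, and none of their exact Poisson 95% intervals, which reach 1.41, 0.410 and 1.46 CPM, reached the lowest control bound of 2.16 CPM. Means were 4.92 ± 2.86 CPM in controls and 0.628 ± 0.452 CPM without added iron (SD, n = 3). TDF1 had a log2 fold change of -2.95 (SE 0.77, 95% confidence interval -4.80 to -1.09, edgeR adjusted p = 0.329). It ranged from -3.44 to -2.37 when 1 library was left out, and was -1.76 with the late pollen covariate. On the log2(TPM + 1) scale, which shrinks low genes, limma gave -2.02.

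AMS was the most abundant member in both groups. AMS (AT2G16910, chromosome 2, 7331721 to 7334254, plus strand, 8 exons) had 463, 252 and 259 CPM in controls 1, 2 and 3 and 176, 144 and 176 CPM in Fe-deficient 1, 2 and 3. Control 1 was far above the other controls, while the Fe-deficient libraries lay close together and below all of them. The log2 fold change was -0.97 (SE 0.28, 95% confidence interval -1.64 to -0.31, edgeR adjusted p = 0.329). It was -0.63 without control 1 and -0.36 with the late pollen covariate. AMS and UBC23 (AT2G16920) on the opposite strand share 29 bases at their ends, and the library kit does not mark strand. UBC23 had 45.9 to 49.2 CPM in controls and 43.3 to 60.1 CPM in Fe-deficient anthers.

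MYB80, which with AMS switches on genes of sporopollenin synthesis, had overlapping groups. MYB80 (AT5G56110, chromosome 5, 22719191 to 22720664, plus strand, 3 exons) had 18.7, 8.00 and 12.9 CPM in controls 1, 2 and 3 and 5.59, 3.29 and 9.89 CPM in Fe-deficient 1, 2 and 3. Fe-deficient 3 exceeded control 2. The log2 fold change was -1.07 (SE 0.48, 95% confidence interval -2.24 to 0.09, edgeR adjusted p = 0.379). It was -1.58 without Fe-deficient 3 and -0.27 with the late pollen covariate.

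MS1, the last factor of the cascade, had lower levels in all Fe-deficient libraries than in any control. MS1 (AT5G22260, chromosome 5, 7367635 to 7370295, minus strand, 3 exons) had 63.7, 43.4 and 45.6 CPM in controls 1, 2 and 3 and 25.1, 16.9 and 27.1 CPM in Fe-deficient 1, 2 and 3. The highest Fe-deficient library was well under the lowest control. Means were 50.9 ± 11.1 and 23.0 ± 5.41 CPM (SD, n = 3). Its log2 fold change was -1.14 (SE 0.24, 95% confidence interval -1.72 to -0.56, edgeR adjusted p = 0.329). By unadjusted p, MS1 stood at place 129 of the 21267 tested genes and bHLH91 at place 116. With the late pollen covariate the log2 fold change of MS1 was -0.68.

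The 3 related bHLH factors each had lower levels in all Fe-deficient libraries than in any control, with log2 fold changes whose intervals overlap. bHLH91 (AT2G31210) lies on chromosome 2 at 13296143 to 13298277, and bHLH10 (AT2G31220) follows it on the same strand at 13302666 to 13304869, with 4388 bases between them. bHLH89 (AT1G06170) lies on chromosome 1 at 1884981 to 1886904, minus strand. bHLH91 had 68.9, 47.6 and 42.4 CPM in controls 1, 2 and 3 and 21.9, 29.4 and 22.4 CPM in Fe-deficient 1, 2 and 3. bHLH89 had 94.7, 60.9 and 57.2 CPM in the controls and 35.1, 43.6 and 33.0 CPM in the Fe-deficient libraries. Both were highest in Fe-deficient 2 within their group, the library in which TDF1, AMS, MYB80 and MS1 were lowest.

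bHLH10 had 94.3, 63.9 and 56.8 CPM in controls 1, 2 and 3 and 46.3, 45.2 and 43.5 CPM in Fe-deficient 1, 2 and 3. Its Fe-deficient libraries were nearly equal, with the highest 1.06 times the lowest. The log2 fold change was -1.11 (SE 0.23, 95% confidence interval -1.66 to -0.56, edgeR adjusted p = 0.329) for bHLH91. It was -0.93 (SE 0.23, -1.49 to -0.37, edgeR adjusted p = 0.329) for bHLH89 and -0.67 (SE 0.21, -1.17 to -0.18, edgeR adjusted p = 0.331) for bHLH10. With the late pollen covariate bHLH91, bHLH89 and bHLH10 had log2 fold changes of -0.80, -0.60 and -0.27, and bHLH10 had -0.43 without control 1. Shared sequence between these copies was looked for in the TAIR10.1 transcripts. No word of 31 bases in the transcripts of 8 members, bHLH89 and bHLH91 among them, occurred in a transcript of another annotated gene. bHLH10 shared 0.696% of its words with the short locus AT2G31215, which lies between bHLH91 and bHLH10 and had 0.877 to 2.26 CPM. Of the members, bHLH89 alone had more than 1 transcript in the deposited tables, and AT1G06170.1 took between 80.9% and 91.8% of its counts in each library, with no separation of the groups.

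**Figure D2:**
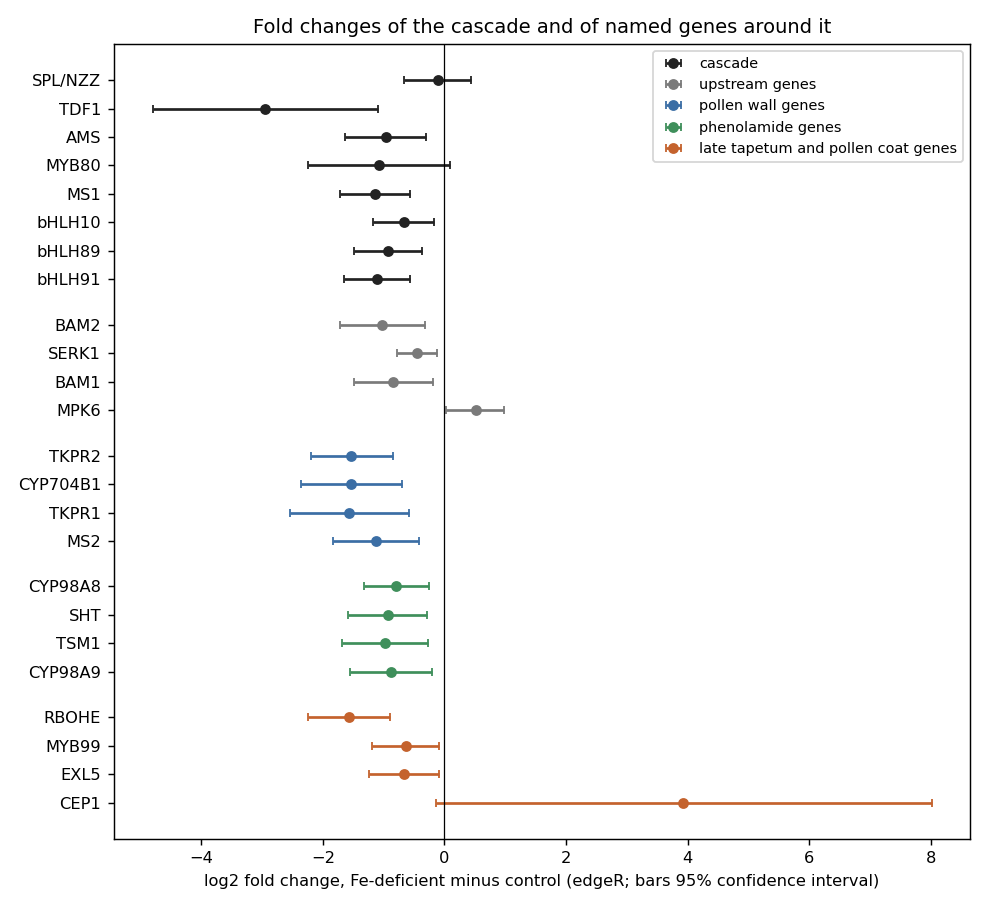
edgeR log2 fold change of Fe-deficient against control anthers (horizontal axis) for the 8 tested cascade genes and for up to 4 genes of each surrounding list, with bars for the 95% confidence interval. Among the cascade genes the intervals of SPL/NZZ and MYB80 hold 0, and no gene shown passed the adjusted threshold by edgeR.

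Levels between genes were compared in TPM. In controls the order was AMS (193 TPM on average), bHLH89 (53.1), bHLH10 (48.3), SPL/NZZ (46.0), bHLH91 (35.8), MS1 (25.6), MYB80 (18.2), TDF1 (6.19) and DYT1 (1.63). AMS lay above bHLH89, and MYB80 above TDF1, with no overlap of their ranges over the 3 controls. The ranges of all other neighbours in that order overlapped. In Fe-deficient anthers the order was AMS (85.4 TPM), SPL/NZZ (36.4), bHLH10 (26.2), bHLH89 (24.0), bHLH91 (14.3), MS1 (10.1), MYB80 (7.70), TDF1 (0.705) and DYT1 (0.309). SPL/NZZ came next after AMS there, and its range lay above that of bHLH10. In TPM, AMS stood at percentile 96.9 of the detected loci in controls and at percentile 92.7 in Fe-deficient anthers. TDF1 stood at percentiles 40.0 and 18.3. The 9 genes summed to 575, 347 and 361 TPM in controls 1, 2 and 3 and to 191, 192 and 233 TPM in Fe-deficient 1, 2 and 3, of which AMS made up between 36.7% and 47.2% in each library.

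Ratios between members, chosen after their values were seen, show where cascade genes were not in fixed proportion. The CPM ratio of SPL/NZZ to bHLH89 was 0.606, 0.836 and 0.641 in controls 1, 2 and 3 and, in the same order, 1.31, 1.22 and 1.05 in the Fe-deficient libraries. The CPM ratio of TDF1 to AMS was 0.0177, 0.0114 and 0.0142 in the controls and 0.00458, 0.00079 and 0.00548 in the Fe-deficient libraries, where Fe-deficient 2 rests on 2 counts of TDF1. Neither ratio overlapped between the groups. The ratios of SPL/NZZ to TDF1, MS1 and bHLH91 did not overlap either, whereas those of SPL/NZZ to AMS, MYB80 and bHLH10 did. TDF1 stood apart in its ratio to each other tested member.

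The tandem neighbours bHLH10 and bHLH91 were in a CPM ratio of 1.37, 1.34 and 1.34 in the controls and of 2.11, 1.53 and 1.95 in Fe-deficient 1, 2 and 3. The ratio was nearly constant over the controls and higher in each Fe-deficient library. MYB80 to bHLH91, by contrast, was at 0.271, 0.168 and 0.305 in the controls and at 0.255, 0.112 and 0.442 in Fe-deficient 1, 2 and 3, lowest and highest within the Fe-deficient group. These differences between members were not tested.

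**Figure D3:**
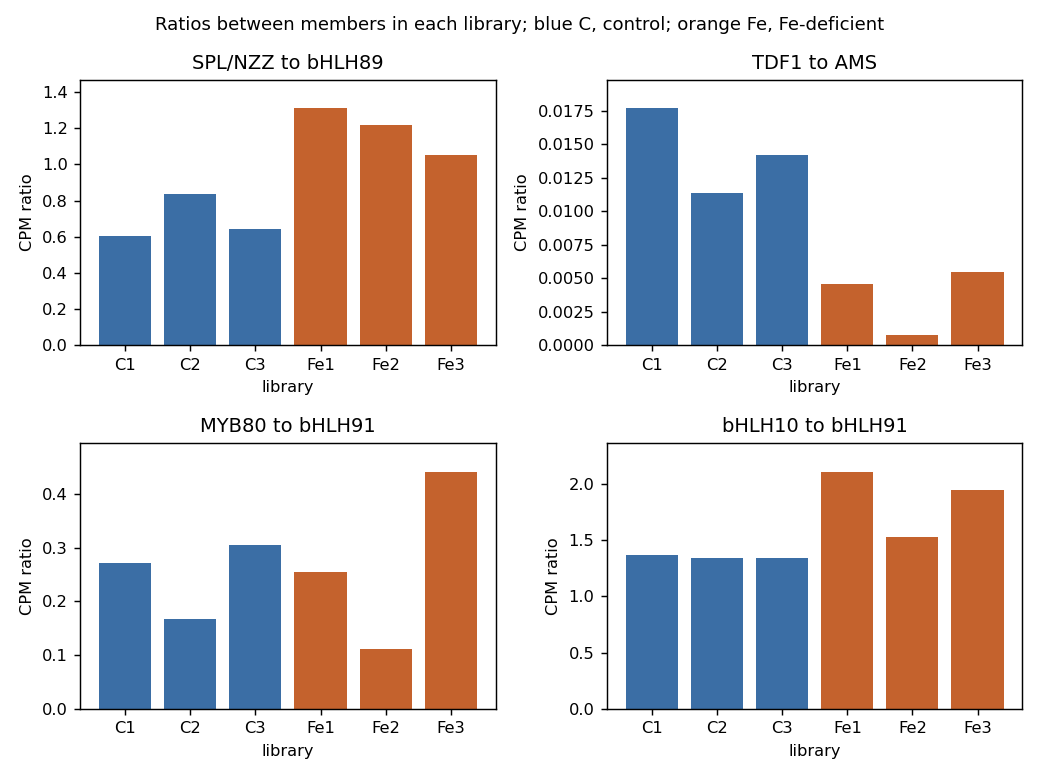
Ratio of the CPM of 1 member to that of another in each library, on axes that start at 0, with controls in blue and Fe-deficient libraries in orange. SPL/NZZ to bHLH89 and bHLH10 to bHLH91 are higher, and TDF1 to AMS lower, in every Fe-deficient library, while MYB80 to bHLH91 runs from 0.112 in Fe-deficient 2 to 0.442 in Fe-deficient 3.

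Within the control group all 9 members were highest in control 1. The highest control was 1.47 times the lowest for MS1, 1.84 times for AMS, 2.34 times for MYB80 and 2.84 times for TDF1. Control 1 was at the same time the lowest library in late pollen markers, with a median log2 difference from the mean of the controls of -0.91, against 0.44 and 0.64 in controls 2 and 3. Within the Fe-deficient group these values were 1.93, 1.93 and 0.43 in Fe-deficient 1, 2 and 3. The cascade medians on the same scale were 0.44, -0.19 and -0.27 in controls 1, 2 and 3, and the Fe-deficient libraries had -0.99, -0.97 and -0.86. All 26 late pollen markers had a positive log2 fold change (median 1.43). In 7, every Fe-deficient library was higher than any control, against 10.0% of all tested genes. That count was 26 without Fe-deficient 3 and 12 without control 3. Leaving out a library can only raise such a count or leave it, and the matching shares of all genes were not computed. DESeq2 called 2 of the markers higher, against 2.10% of genes. Of the 26, 1 was at 0 in control 1 and was detected in the other libraries. The 11 tested meiocyte markers of 12 had 9 negative values, a median log2 fold change of -0.41 and 5 genes lower without overlap, against 10.3% of all tested genes. Their summed level was 48.0 to 66.3 TPM in controls and 32.5 to 38.2 TPM in the Fe-deficient group, with 1 of them at 0 in Fe-deficient 1. Relative to the mean of the controls, their medians were -0.05, -0.58 and -0.72 in the Fe-deficient libraries and 0.26, -0.08 and -0.18 in the controls, each in the order 1 to 3. The 3 endothecium markers had a median log2 fold change of 0.43, and 1 was negative. The part of late pollen RNA in the lower cascade levels was not tested. The covariate fits given above cannot settle it, since the markers were themselves higher in Fe-deficient 1 and 2 than in the controls.

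The genes known upstream of DYT1 or beside it lay closer to the control levels. Of 19 loci on this list, which holds the receptor kinase EMS1 and its ligand TPD1, 18 were tested. Their median log2 fold change was -0.18, with 13 negative and 5 positive values. In 4 of them the Fe-deficient libraries were lower without overlap, against 10.3% of all tested genes, and in 0 they were higher, against 10.0%. The first count was 7 without control 3, where the share of all genes was not computed. It was also 7 without Fe-deficient 3, against 27.2% of all tested genes. EMS1 had 72.5, 59.4 and 49.6 CPM in controls 1, 2 and 3 and 71.3, 52.5 and 51.8 CPM in Fe-deficient 1, 2 and 3. BAM2, a receptor kinase that with BAM1 limits the sporogenous cells to the inside of the anther lobe, had 102, 63.4 and 79.4 CPM in the controls and 35.9, 29.3 and 55.8 CPM in the Fe-deficient libraries. BAM2 differed by -1.02 in log2 fold change (SE 0.29, adjusted p = 0.329 by edgeR), and BAM1 by -0.84 (SE 0.27, adjusted p = 0.337 by edgeR). The co-receptor SERK1 had a log2 fold change of -0.46 (SE 0.13, adjusted p = 0.331 by edgeR) and the kinase MPK6 one of 0.51 (SE 0.20, adjusted p = 0.364 by edgeR). With the late pollen covariate the log2 fold changes of BAM2, BAM1, SERK1 and MPK6 were -0.46, -0.33, -0.37 and 0.16. DESeq2 called 0 of the list, against 1.41% of genes lower and 2.10% higher. At an edgeR unadjusted p under 0.05, 3 genes were lower, against 6.09% of all tested genes, and 1 was higher, against 7.34%.

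Pollen wall and tetrad genes known downstream of AMS or MYB80 lay under the control levels, with exceptions. Over 16 genes the median log2 fold change was -1.49, and 14 values were negative. In 10 genes the Fe-deficient libraries were lower without overlap, against 10.3% of all tested genes. DESeq2 called 8 of the 16 lower, against 1.41%. By edgeR 0 passed, and 11 were lower at an unadjusted p under 0.05, against 6.09%. TKPR2, a reductase of sporopollenin synthesis, had 330, 226 and 212 CPM in controls 1, 2 and 3 and 68.6, 79.1 and 119 CPM in Fe-deficient 1, 2 and 3. It differed by -1.53 in log2 fold change (SE 0.28, adjusted p = 0.329 by edgeR). CYP704B1, which encodes a fatty acid hydroxylase, had a log2 fold change of -1.53 (SE 0.34), TKPR1 one of -1.57 (SE 0.40) and MS2, a fatty acyl reductase, one of -1.13 (SE 0.29), each with an edgeR adjusted p of 0.329. With the late pollen covariate the log2 fold changes of TKPR2, CYP704B1, TKPR1 and MS2 were -0.91, -0.72, -0.61 and -0.46. Relative to the controls, Fe-deficient 1, 2 and 3 stood at a list median of -1.56, -1.93 and -0.78, a wider spread than the cascade medians of -0.99, -0.97 and -0.86.

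UNDEAD, an aspartic protease gene that MYB80 activates, followed the libraries as MYB80 did. UNDEAD had 24.9, 8.81 and 13.2 CPM in controls 1, 2 and 3 and 5.65, 3.23 and 13.0 CPM in Fe-deficient 1, 2 and 3, chosen after its values were seen. GLOX1 and VGD1, also reported as MYB80 targets, had higher means in the Fe-deficient group, and neither passed a test (edgeR adjusted p = 0.465 and 0.386). Of the 16 genes on the list they were the 2 with a positive log2 fold change, and the other 14 were negative. VGD1, a pectin methylesterase also used in pollen tubes, had 582, 2345 and 2082 CPM in the controls and 5313, 6351 and 1929 CPM in Fe-deficient 1, 2 and 3. GLOX1 had 0.201, 8.54 and 60.7 CPM in the controls and 229, 166 and 24.5 CPM in the Fe-deficient libraries. In both genes Fe-deficient 1 and 2 were above all controls and Fe-deficient 3 was not, and both were lowest in control 1, as late pollen markers were.

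Tapetal phenolamide genes, which make the hydroxycinnamoyl spermidines of the pollen surface, had lower levels throughout the Fe-deficient group. All 4 genes, SHT, TSM1, CYP98A8 and CYP98A9, were lower there without overlap, against 10.3% of all tested genes, with log2 fold changes between -0.98 and -0.79. SHT, the spermidine acyltransferase, had 1279, 861 and 709 CPM in controls 1, 2 and 3 and 557, 502 and 434 CPM in Fe-deficient 1, 2 and 3 (log2 fold change -0.93, SE 0.27, edgeR adjusted p = 0.329). DESeq2 called SHT, TSM1 and CYP98A8 lower, against 1.41% of genes. The late pollen covariate put SHT at -0.54, CYP98A8 at -0.46, TSM1 at -0.88 and CYP98A9 at -0.66. Without it CYP98A8, TSM1 and CYP98A9 were at -0.79, -0.98 and -0.88. The medians of the 4 genes relative to the controls, -0.77, -0.73 and -1.18 in Fe-deficient 1, 2 and 3, put Fe-deficient 3 lowest, whereas it was highest for the pollen wall genes.

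Late tapetum and pollen coat genes had a median close to the control level, save in Fe-deficient 3. Over 11 genes the median log2 fold change was -0.07, with 8 negative values. In 3 genes the Fe-deficient libraries were lower without overlap, against 10.3% of all tested genes, and in 1 they were higher, against 10.0%. The first count was 6 without Fe-deficient 2, where the share of all genes was not computed. Leaving out a library can only raise such a count or leave it. The glycine-rich oleosins of the pollen coat, GRP14, GRP16, GRP17, GRP18 and GRP19, had log2 fold changes between -0.07 and 0.29. GRP17 was at 4487, 4499 and 4954 CPM in controls 1, 2 and 3 and at 4210, 5369 and 3905 CPM in Fe-deficient 1, 2 and 3. RBOHE, an NADPH oxidase that times tapetal breakdown, was 1 of the 3 genes lower without overlap. It was at 59.2, 35.9 and 57.0 CPM in the controls and 22.0, 12.7 and 16.5 CPM in the Fe-deficient libraries. It differed by -1.57 in log2 fold change (SE 0.28, adjusted p = 0.329 by edgeR), and DESeq2 called it.

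MYB99, a MYB gene downstream of MS1, had a log2 fold change of -0.64 (SE 0.23, adjusted p = 0.352 by edgeR), and the extracellular lipase gene EXL5 one of -0.66 (SE 0.24, adjusted p = 0.353 by edgeR). With the late pollen covariate MYB99 was at -0.26, EXL5 at -0.71 and RBOHE at -1.44. CEP1, a cysteine protease of tapetal cell death, was the gene with the higher levels. Controls 1, 2 and 3 had 0.452, 0.109 and 14.6 CPM of it and Fe-deficient 1, 2 and 3 had 186, 29.9 and 19.3 CPM. The log2 fold change of CEP1 was 3.93 (SE 1.69, adjusted p = 0.374 by edgeR), and controls and Fe-deficient libraries were each spread widely. CEP1 was at 8.07 without control 3, at 2.27 without Fe-deficient 1 and at 1.32 with the late pollen covariate.

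**Figure D4:**
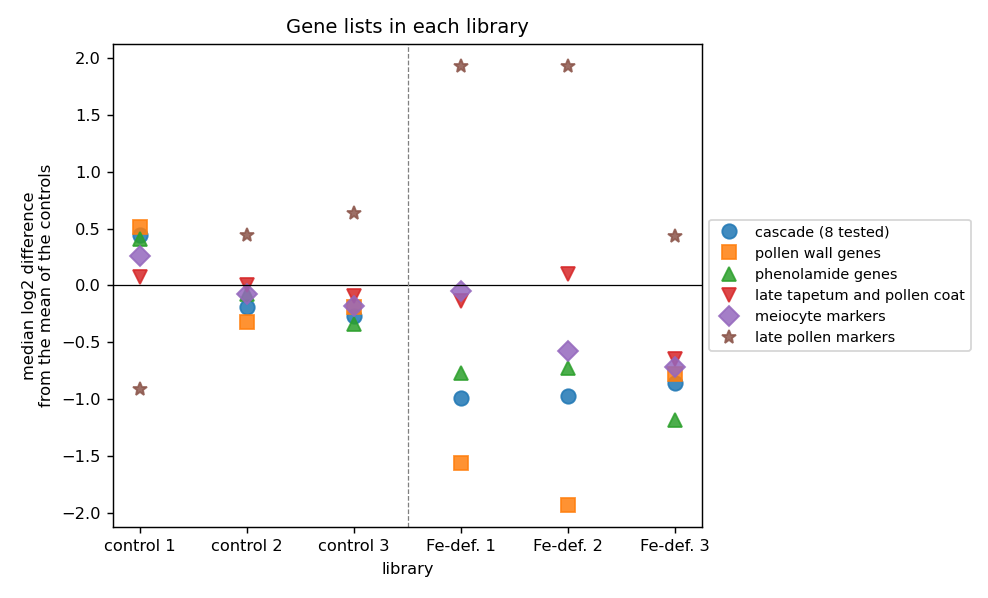
Median log2 difference from the mean of the 3 controls (vertical axis) of the tested genes of each list in each library. The cascade lies between -0.99 and -0.86 in the Fe-deficient libraries, the pollen wall genes run from -1.93 to -0.78, and the late pollen markers stand at 1.93, 1.93 and 0.43.

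Tapetum markers that are not regulators varied in size. A9, a tapetum-specific protein of the lipid transfer type, had 404, 271 and 198 CPM in controls 1, 2 and 3 and 136, 83.0 and 143 CPM in Fe-deficient 1, 2 and 3 (log2 fold change -1.27, SE 0.33, edgeR adjusted p = 0.329). A6, a glucanase-related gene that is also on the pollen wall list, had a log2 fold change of -1.65 (SE 0.52, adjusted p = 0.334 by edgeR). Both were called by DESeq2. A9, A6, LTP12 and ATA7 had log2 fold changes of -0.52, -0.77, -0.34 and -0.30 with the late pollen covariate. The lipid transfer genes LTP12 and ATA7 had log2 fold changes of -0.63 (SE 0.26, adjusted p = 0.372 by edgeR) and -0.49 (SE 0.28, adjusted p = 0.438 by edgeR). The log2 fold changes of 6 tested members lay within the range of these markers, that of TDF1 below it and that of SPL/NZZ above it.

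The genes most like the cascade over the 6 libraries were found by correlating log2 CPM with the mean standardised level of the 8 tested members, among genes with a mean of at least 2 CPM. The 8 closest were KCS21, NUDT3, AT4G29250, AT4G22120, MYB95, SUVR1, FUT8 and AT2G12190, with Pearson's r between 0.995 and 0.999 over 6 libraries. KCS21, a 3-ketoacyl-CoA synthase gene, had 84.5, 43.9 and 40.5 CPM in controls 1, 2 and 3 and 24.5, 19.8 and 22.3 CPM in Fe-deficient 1, 2 and 3. NUDT3, a nudix hydrolase gene, had 183, 133 and 127 CPM in the controls and 96.9, 93.7 and 99.6 CPM in the Fe-deficient libraries. MYB95, a MYB gene, had 34.4, 22.5 and 21.5 CPM in the controls and 14.3, 12.1 and 13.1 CPM in the Fe-deficient libraries. All 8 were highest in control 1, as was the mean of the members by which they were picked. The points share libraries, depth and the groups, so these correlations are a description.

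Within the cascade the likeness was uneven. Pearson's r of log2 CPM over the 6 libraries was 0.99 for TDF1 with MS1 and 0.99 for bHLH89 with bHLH91. It was 0.93 for TDF1 with MYB80 and 0.63 for MYB80 with bHLH91. SPL/NZZ had an r between -0.18 and 0.56 with the other tested members.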

How the data were processed

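Whole-anther RNA was sequenced as single-end TruSeq v2 libraries, per the labels' protocols, 3 control and 3 Fe-deficient, grouped by sample title. The submitters' processing notes list Trimmomatic 0.35, Salmon 0.12.0 and TAIR10. The deposited tables are those of Salmon per the file headers, holding estimated counts, TPM values, length and effective length (another measure) per transcript. Sources used here give no strand setting. Salmon divides reads between similar transcripts.

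The 41086 transcripts were collapsed to 33027 loci by adding their estimated counts, which were then rounded. No pair of libraries was identical, and chi-square per degree of freedom within a group was at least 26.5, so all were kept. After filterByExpr, groups were compared in edgeR 4.0.16 (quasi-likelihood F test, TMM scaling) with Benjamini-Hochberg adjustment over all 21267 tested genes. The SE is the log2 fold change over the root of its F value. Alternatives used DESeq2 1.42.0 and limma 3.58.1 on R 4.3.3, and other scalings, filters, a length offset, a replicate block, a late pollen covariate and each library left out. Figures were made in Python 3.11.15 with matplotlib 3.10.9. Procedures were tested on simulated data. Loci, names and promoters came from RefSeq's TAIR10.1 annotation. Floors stand for 3 counts. Members, lists and rules were chosen with earlier results of these data known. Named genes were the members, up to 4 tested genes per list by lowest unadjusted p, the tapetum markers and the 8 genes most like the members; EMS1, UNDEAD, GLOX1, VGD1, GRP17, BTS, FER1, UBC23 and AT2G31215 are named besides, chosen after their values were seen.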

Additional observations from a re-analysis of the deposited data

How the results depend on the processing

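The median log2 fold change of the cascade, -1.02, stayed between -1.22 and -0.70 under all alternatives but 1, and was -0.48 with the late pollen covariate. The number of members below all controls was 6 under each other scaling and in TPM, and between 6 and 8 with 1 library left out. By DESeq2 436 genes were higher and 294 lower, against 0 and 0 by edgeR, limma-voom and limma on TPM, where 2856 genes had an unadjusted edgeR p under 0.05. The cause was not tested. With the late pollen covariate no gene passed and 1 of 8 members had an unadjusted p under 0.05. Leaving out 1 library gave 0 calls each time, with the lowest adjusted p between 0.0859 and 0.799. SPL/NZZ ranged from -0.28 to 0.04 with 1 library left out and turned positive without control 1 (0.03) and without Fe-deficient 3 (0.04). Of the 36 genes for which alternatives were run, no other turned. EMS1, UNDEAD, GLOX1, VGD1, GRP17, BTS, FER1, UBC23 and AT2G31215 were not among these 36. Deviations from the group means correlated at -0.176, 0.404 and -0.13 between samples of the same replicate number. With 3 libraries a group, these values cannot tell whether the numbers pair the samples. With the replicate block 0 genes passed and the cascade median was -1.0. The median of all genes moved to -0.15 with total counts and to -0.20 on log2(TPM + 1), beside cascade medians of -1.15 and -1.17. In all, 21 values of named genes, members included, passed by DESeq2 alone. Upstream genes lower without overlap numbered 4, but 7 without control 3 or without Fe-deficient 3. Late tapetum genes of this kind numbered 3, but 5 with total counts, 7 in TPM and 6 without Fe-deficient 2. Leaving out a library can only raise such counts or leave them. Of all tested genes 10.3% were lower without overlap, 27.2% without Fe-deficient 3 and 11.7% without control 1. Under the other scalings, in TPM and without any other library that share was not computed, so those counts have no share beside them. DYT1 and TDF1 rest on few reads, with at most 7 and 22 counts in a Fe-deficient library.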
